A study of Homo sapiens with 12 samples.

Results

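The TRIM genes encode tripartite motif proteins, a family of mostly RING-type ubiquitin ligases, and 55 of them were followed among 18404 genes measured in A375 and A2058 human melanoma cells. A member is any gene whose symbol starts with TRIM and a number and which has a probe set assigned to that symbol alone. Where a gene had several such probe sets (TRIM26, TRIM31 and TRIM51), the one with the highest mean over all arrays was used. Of the 55, 54 code for protein and 1, TRIM67-AS1, is an antisense RNA that carries the name of its partner gene. A further 20 TRIM symbols appeared only on probe sets shared with other symbols and are not members, among them TRIM34, TRIM6, TRIM39, TRIM13 and TRIM58.

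Both lines are established melanoma lines that the labels give as BRAF mutant (V600E), and A375 cells are also called A375p there. Cells of each line received either vemurafenib, a kinase inhibitor of mutant BRAF, or its solvent DMSO, with 3 arrays in each of the 4 groups. The vemurafenib dose was 1 µM for 72 h with renewal every 24 h, and controls had the same volume of DMSO. The treatment text is attached to every sample but speaks of A375p alone, so the dose for A2058 rests on that shared text. The labels mention no interferon treatment. Nothing in the labels states that the 3 arrays of a group came from separate cultures, so p-values measure the spread between these arrays, which may be technical.

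TRIM proteins carry a RING domain, which recruits the ubiquitin-loaded enzyme, followed by B-box and coiled-coil segments that assemble the protein into multimers, and a variable end that picks the substrate. A group of them is induced by interferon through the ISGF3 transcription factor and acts in antiviral defence, either against the virus itself or by adding ubiquitin to the proteins that sense viral nucleic acid. Others work in chromatin (TRIM24, TRIM28, TRIM33), on the cytoskeleton (TRIM9, TRIM46, TRIM54) or on neuronal and muscle proteins (TRIM2, TRIM3, TRIM32). Interferon-responsive members were taken from a list of 10 written from general knowledge, of which 9 were measured: TRIM5, TRIM14, TRIM21, TRIM22, TRIM25, TRIM26, TRIM38, TRIM56 and TRIM69. The list was chosen with earlier results of these data known, so counts over it describe these data and are not an independent test.

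Values are log2 expression as deposited. Replicates of a group correlated at r = 0.9978 to 0.9989 across genes, except that A375 vemurafenib replicate 1 correlated with the other arrays of its group at 0.9939 and 0.9941. That array had the lowest quality weight, 0.149. The TRIM22 change and the count of TRIM genes called in A375 are also given without it. Of 7 melanocyte markers, SOX10 had a mean of 9.53 in A375 DMSO and 9.21 in A2058 DMSO, MITF 8.35 and 9.77, and S100B 9.46 and 10.96. The pigment genes PMEL, MLANA, TYR and TYRP1 all had means under 5 in A375 DMSO. Their means in A2058 DMSO were 8.45, 4.75, 10.93 and 6.06. With vemurafenib MITF, S100B and TYRP1 were called up and SOX10 down in A375, where 17.7% and 19.3% of all genes were. All but S100B were called up in A2058, where 14.6% of all genes were, with TYRP1 reaching 9.33. The leukocyte marker PTPRC lay between 4.15 and 4.17 in every group, and of the 7 leukocyte markers measured only CD68 and LYZ were called for vemurafenib in either line. CD68 rose by 0.92 in A375 and 0.21 in A2058 on the log2 scale, while LYZ changed by -1.27 and -2.12. Neither was dim with DMSO: CD68 had means of 9.24 in A375 and 8.32 in A2058, and LYZ 7.83 and 6.91. Of 6 fibroblast markers 3 rose in A375: LUM by 2.15 from a mean of 4.22, PDGFRB by 0.37 and DCN by 0.19; in A2058 LUM fell by 0.41 and no other was called. The list's median level went from 4.97 to 5.70 in A375, and COL1A1 was not called in either line. Of 6 epithelial markers KRT18, KRT8 and KRT5 fell in A375, KRT18 by 1.79, and KRT18 fell by 1.41 in A2058. The DMSO means of KRT18 were 10.26 in A375 and 8.87 in A2058. Among 4 endothelial markers KDR fell in A2058, by 0.64 from a mean of 5.70, and its mean in A375 DMSO was 6.91. The part of these genes in the TRIM results was not tested.

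The family spanned most of the range of the array (plot of group means for all members). The brightest members by mean over the 12 arrays were TRIM28 at 10.28, TRIM2 at 9.71, TRIM33 at 9.47, TRIM25 at 9.32 and TRIM16 at 9.01. TRIM28 is the corepressor of KRAB zinc finger proteins, and TRIM33 is a chromatin reader that acts with SMAD proteins. The lowest were TRIM48 at 4.26 and TRIM69 and TRIM59 at 4.33. The median member had a mean of 5.83, against 6.06 for all genes. In 13 members every group mean was under 5, as in 27.6% of all genes; only TRIM59 of these was called in any comparison. Each probe set has its own response, so these array levels order probe sets rather than transcripts per gene.

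**Figure D1:**
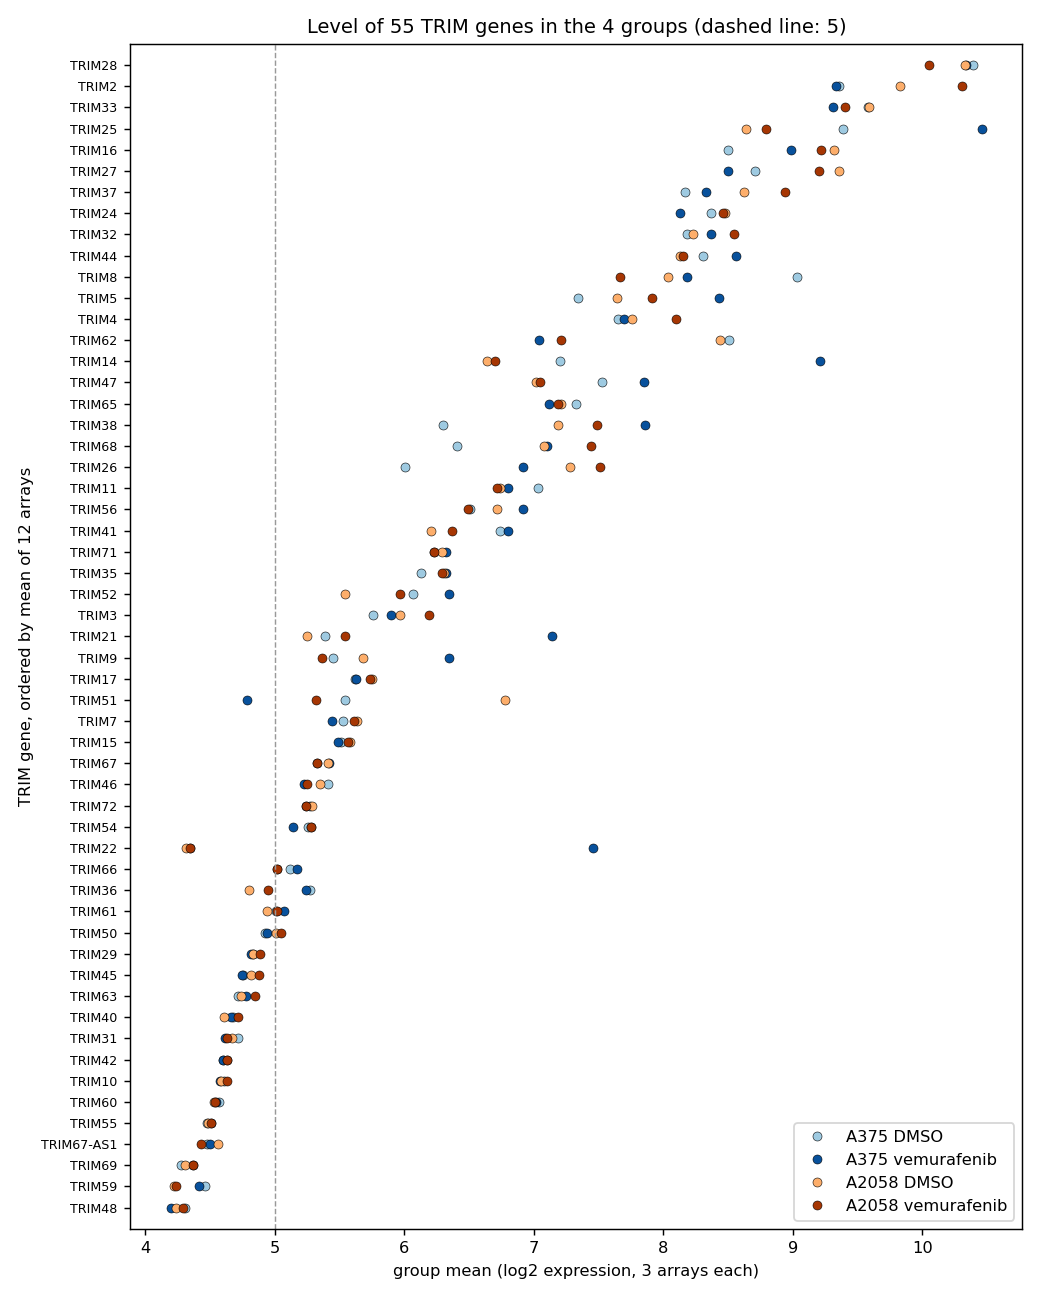
Group means (log2 expression, 3 arrays each) of the 55 TRIM genes, ordered from the lowest to the highest mean of 12 arrays, with 1 colour per group. TRIM28 and TRIM2 stand at the top, and in TRIM22 the mean of A375 with vemurafenib, 7.46, lies far to the right of the other groups, which are near 4.3.

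In A375 cells, vemurafenib raised 8 of the 9 interferon-responsive TRIM genes, 6 of them by at least 2-fold. The largest rises belonged to TRIM22, TRIM14, TRIM21 and TRIM38, and none of the list fell. Over all genes, limma called 17.7% up and 1.93% up by at least 2-fold in this comparison (adjusted p under 0.05). The median difference of the list was 1.09 on the log2 scale, against 0.0042 for all genes. TRIM69 was the exception, with a difference of 0.089 at a level near the bottom of the scale. The 46 TRIM genes outside the list had 7 members called up, all by less than 2-fold, and 7 called down, with a median of -0.0088. Each of these shares, 15.2%, lies at or below the shares for all genes, 17.7% up and 19.3% down.

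TRIM22, an inhibitor of viral transcription, showed the largest change of the family. Its A375 DMSO values were 4.40, 4.34 and 4.32, and with vemurafenib they were 6.70, 7.82 and 7.87. The lowest treated value is that of replicate 1, yet the groups lay far apart, and in A2058 all 6 values fell between 4.27 and 4.38. The A375 difference was 3.11 ± 0.224 (log2, SE), 8.63-fold, with an adjusted p of 1.76e-07. It was 3.49 without replicate 1. The DMSO values lie near the low end of the members' levels, where an array can understate a change, so the fold and the rank describe the deposited signals only. Of all 18404 genes, TRIM22 had the 46th largest rise in A375, TRIM14 the 112th and TRIM21 the 148th.

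TRIM14, a member without a RING domain that works as an adaptor of the mitochondrial antiviral protein MAVS, measured 7.20, 7.25 and 7.14 in A375 DMSO and 9.22, 9.25 and 9.18 with vemurafenib. The change was 2.02 ± 0.05, 4.05-fold (limma, adjusted p = 5.82e-12). In A2058 the values were 6.59, 6.70 and 6.63 with DMSO and 6.67, 6.79 and 6.64 with drug, so the groups overlapped. TRIM21, a cytosolic antibody receptor that is also the Ro52 autoantigen, read 5.43, 5.43 and 5.31 with DMSO and 7.08, 7.20 and 7.13 with vemurafenib in A375. Its rise was 1.75 ± 0.049, 3.36-fold (limma, adjusted p = 1.87e-11). The A2058 values of TRIM21 went from 5.28, 5.20 and 5.28 to 5.55, 5.49 and 5.58, a rise of 0.29 ± 0.049 (limma, adjusted p = 0.00062) without overlap. TRIM21 and TRIM38 were the only members of the list whose A2058 rise was called in every alternative fit.

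TRIM38, which restrains Toll-like receptor signalling, moved from 6.27, 6.40 and 6.22 to 7.81, 7.80 and 7.97 in A375. In A2058 it moved from 7.23, 7.10 and 7.22 to 7.47, 7.51 and 7.48. Both changes were free of overlap, at 1.56 ± 0.0605 and 0.30 ± 0.0605. TRIM25, which adds ubiquitin to the RNA sensor RIG-I, was already bright in A375 DMSO (9.40, 9.43 and 9.35) and reached 10.39, 10.50 and 10.50 with drug. That was a rise of 1.07 ± 0.0481. TRIM5, known for binding retroviral capsids, went from 7.26, 7.34 and 7.42 to 8.28, 8.42 and 8.60, a rise of 1.09 ± 0.0873. Adjusted p-values for these A375 changes ran from 4.24e-10 for TRIM38 to 4.78e-07 for TRIM5 (limma).

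TRIM26, a regulator of interferon induction through IRF3, rose in A375 from 6.01, 5.93 and 6.10 to 6.78, 6.96 and 7.02. The difference was 0.91 ± 0.0746 (limma, adjusted p = 6.2e-07). A second TRIM26 probe set gave a smaller rise in A375, 0.52 (limma over all probe sets, adjusted p = 0.000534). TRIM56, which promotes signalling through STING, was 6.49, 6.54 and 6.49 with DMSO and 7.08, 6.90 and 6.79 with vemurafenib. Its rise of 0.42 ± 0.065 was the smallest called in the list. TRIM69 lay between 4.23 and 4.41 on all 12 arrays; its A375 groups were apart by the narrowest margin, 4.33 against 4.34, and the difference was not called.

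In A2058 the interferon-responsive members moved little. The comparison called 5 of 9 up and 1 down, none by 2-fold, with a median of 0.15. Over all genes 14.6% were called up and 12.5% down, and 0.837% and 1.15% were called up and down by at least 2-fold. The rises were 0.30 for TRIM38, 0.29 for TRIM21, 0.27 for TRIM5, 0.23 for TRIM26 and 0.15 for TRIM25. TRIM56 fell by 0.22 in A2058, opposite to its change in A375. The adjusted p-values of TRIM5, TRIM25, TRIM26 and TRIM56 lay between 0.021 and 0.0394 (limma), and all 4 calls were lost on leaving out some single arrays, as given with the dependence on processing. TRIM26 depends further on its probe set, since the second one differed by -0.15 in A2058 and was not called. TRIM22 differed by 0.03 and TRIM14 by 0.06, neither of which was called.

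**Figure D2:**
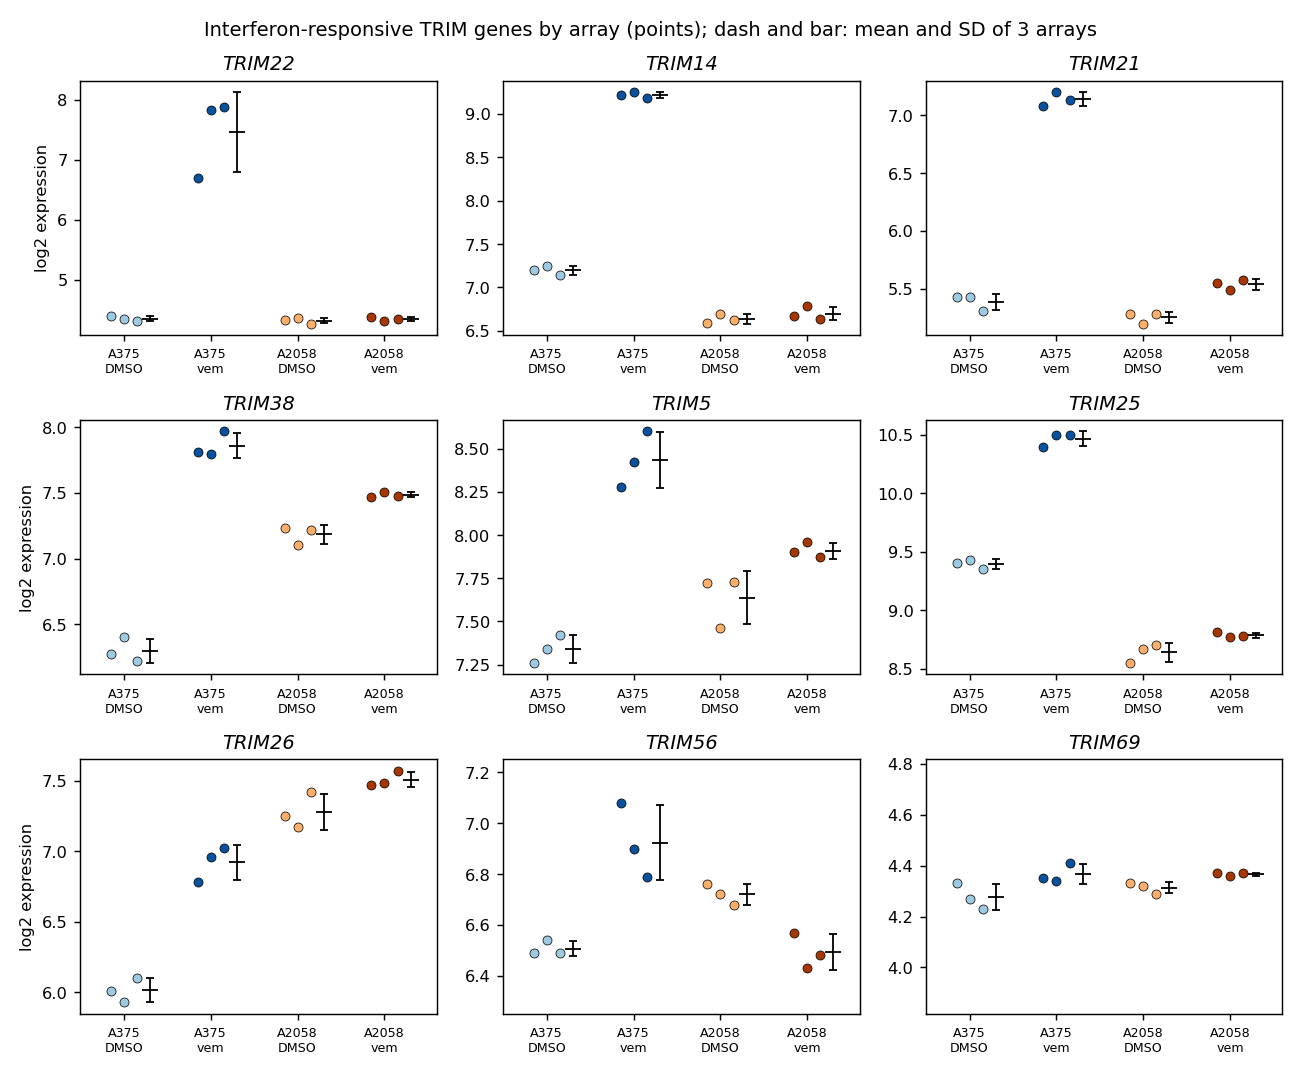
Log2 expression of the 9 measured interferon-responsive TRIM genes on each of the 12 arrays (points), with the mean and SD of the 3 arrays of each group. Axes differ between panels and do not start at 0. The A375 vemurafenib points lie above the A375 DMSO points in every panel, by the least in TRIM69, and TRIM22 replicate 1 of A375 vemurafenib, at 6.70, lies below the other treated arrays.

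The lines differed in their responses for 8 of these 9 genes, each with the larger value in A375. The difference of the responses, tested as an interaction in the same model, was 3.08 ± 0.317 for TRIM22, 1.96 ± 0.0708 for TRIM14, 1.46 ± 0.0693 for TRIM21 and 1.26 ± 0.0856 for TRIM38. It was 0.93 for TRIM25, 0.82 for TRIM5, 0.68 for TRIM26 and 0.64 for TRIM56, with adjusted p-values of at most 0.000276 (limma). Among all genes 13.1% were called in this direction and 16.4% in the other. These 8 calls held in each fit that left out 1 array.

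Promoter sequence was examined because these genes rose together and many interferon-induced genes carry an interferon-stimulated response element. The windows are RefSeq's, of assembly GRCh38.p14, and run from 250 bases before to 50 bases after an annotated start. The core searched was 2 copies of GAAA in the same direction with any 2 bases between them, on both strands, and matches that overlap were merged. It occurred in 5 of the 8 interferon-responsive members with an entry, namely TRIM14, TRIM21, TRIM26, TRIM5 and TRIM69, and not in TRIM25, TRIM38 or TRIM56. TRIM22 has no entry. Of the 35 other TRIM genes with an entry, 3 held a match: TRIM16, TRIM2 and TRIM44. The core was found in 3.57% of all 35116 windows of this length, and in 4.38% of the 27305 genes with an entry. The 5 windows follow, 5′ to 3′ on the strand of the gene, with the matched bases in capitals.
TRIM14, chr9:98119173-98119472, minus strand: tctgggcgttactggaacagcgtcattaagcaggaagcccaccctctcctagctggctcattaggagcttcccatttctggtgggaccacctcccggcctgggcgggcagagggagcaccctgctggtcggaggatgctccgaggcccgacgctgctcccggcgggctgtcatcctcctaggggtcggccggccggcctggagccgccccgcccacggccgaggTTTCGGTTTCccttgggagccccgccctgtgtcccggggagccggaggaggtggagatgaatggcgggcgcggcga
TRIM21, chr11:4393653-4393952, minus strand: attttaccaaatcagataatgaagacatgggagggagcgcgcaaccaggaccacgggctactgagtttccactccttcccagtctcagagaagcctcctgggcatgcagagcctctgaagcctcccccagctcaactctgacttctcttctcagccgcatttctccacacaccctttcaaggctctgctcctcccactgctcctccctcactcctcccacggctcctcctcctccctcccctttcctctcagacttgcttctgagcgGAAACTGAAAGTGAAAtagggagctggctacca
TRIM26, chr6:30213357-30213656, minus strand: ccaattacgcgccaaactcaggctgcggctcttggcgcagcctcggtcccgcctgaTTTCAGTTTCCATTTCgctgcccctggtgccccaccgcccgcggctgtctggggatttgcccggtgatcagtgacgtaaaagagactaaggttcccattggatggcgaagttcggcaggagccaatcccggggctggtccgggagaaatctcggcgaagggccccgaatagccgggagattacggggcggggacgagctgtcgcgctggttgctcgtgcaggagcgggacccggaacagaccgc
TRIM5, chr11:5685025-5685324, minus strand: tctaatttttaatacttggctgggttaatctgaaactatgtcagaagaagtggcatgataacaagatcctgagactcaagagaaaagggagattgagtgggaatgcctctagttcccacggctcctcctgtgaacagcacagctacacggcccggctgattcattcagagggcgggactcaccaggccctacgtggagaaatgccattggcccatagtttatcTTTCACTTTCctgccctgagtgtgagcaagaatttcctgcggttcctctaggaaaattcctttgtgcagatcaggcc
TRIM69, chr15:44736278-44736577, plus strand: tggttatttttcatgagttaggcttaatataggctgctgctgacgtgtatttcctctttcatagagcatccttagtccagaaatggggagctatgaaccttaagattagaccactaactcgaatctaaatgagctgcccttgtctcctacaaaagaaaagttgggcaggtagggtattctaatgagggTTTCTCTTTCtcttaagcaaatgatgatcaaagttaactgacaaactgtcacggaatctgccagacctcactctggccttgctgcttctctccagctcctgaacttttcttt
The match of TRIM14 began 26 bases before the start and that of TRIM5 27 bases before it. In TRIM26 and TRIM21 overlapping matches merged into runs of 16 bases, which began 194 bases before the start in TRIM26 and 18 bases after it in TRIM21. TRIM69 held a match 62 bases before its start and was not called in either line, while TRIM25 and TRIM38 had none in the window and rose by over 2-fold in A375. A match is a description of the letters and not evidence of binding.

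The partners of these ligases in nucleic acid sensing were called more often in A375. By the interaction contrast the response was more positive in A375 for 10 of 20 and more negative for 2. Of all genes 13.1% and 16.4% were called in these directions. A more positive response need not be a larger one: CGAS and TRAF3, among the 10, fell in A2058 and were not called in A375. In this list of 20 sensing genes, 12 were called up and 2 down in A375, with 17.7% and 19.3% of all genes called in these directions. For A2058, 1 was called up and 4 down, with 14.6% and 12.5% of all genes called in these directions. RIGI, the sensor that TRIM25 modifies, stood at 6.18, 6.10 and 6.10 in A375 DMSO and at 9.97, 10.13 and 10.08 with vemurafenib. That was a rise of 3.93 ± 0.0492, 15.3-fold (limma, adjusted p = 1.61e-14), with no call in A2058 (-0.032). The related helicases DHX58 and IFIH1 rose by 2.99 and 2.96 in A375, and neither was called in A2058. In the latter line STING1 rose by 1.07 and CGAS, the DNA sensor upstream of it, fell by 0.79. ZC3HAV1, the antiviral protein ZAP that works with TRIM25, rose by 0.82 in A375 and fell by 0.28 in A2058.

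Of 13 measured genes of the interferon receptor and ISGF3 pathway, 7 were called up and 2 down in A375, and 6 up and 4 down in A2058. The shares of all genes are 17.7% up and 19.3% down in A375, and 14.6% and 12.5% in A2058. USP18, which removes the ubiquitin-like modifier ISG15, rose by 3.27 in A375 and fell by 0.20 in A2058. IRF9, the DNA-binding subunit of ISGF3, rose in both lines, by 2.06 ± 0.0417 in A375 and by 0.72 ± 0.0417 in A2058. IFNGR2, a chain of the interferon gamma receptor, fell by 1.32 in A375 and by 0.64 in A2058. None of the 16 measured interferon ligand genes was called by limma in any of the 5 comparisons. At an unadjusted p under 0.05 the count was 0 for vemurafenib in A375, 0 in A2058 and 1, IFNA10, between the treated lines. Of the 16, 13 had group means under 5 in all 4 groups. The others were IFNL1, with group means from 5.22 to 5.30, IFNL2, from 5.47 to 5.61, and IFNL3, from 7.60 to 7.70. PML, a TRIM protein under another symbol that is also induced by interferon, rose by 0.67 ± 0.0868 in A375 and was not called in A2058 (0.10).

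Outside the interferon list, the most marked common response was the fall of TRIM62, a ligase described as a tumour suppressor in breast epithelium. Its values in A375 were 8.53, 8.52 and 8.48 with DMSO and 7.12, 6.86 and 7.12 with vemurafenib. In A2058 they were 8.48, 8.47 and 8.36 with DMSO and 7.20, 7.24 and 7.20 with drug. Every treated array, of either line, lay below every DMSO array. The falls were -1.48 ± 0.0645 in A375 (limma, adjusted p = 1.31e-09) and -1.22 ± 0.0645 in A2058 (limma, adjusted p = 1.91e-08), and the difference between them, -0.25 ± 0.0912, was not called (adjusted p = 0.0553). TRIM62 was the only member called down by at least 2-fold in A375, where 2.27% of all genes were. It ranked as the 189th largest fall of 18404 genes in A375 and the 141st in A2058.

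TRIM8, a regulator of cytokine and NF-κB signalling, fell in both lines but further in A375. There the values went from 9.02, 9.05 and 9.01 to 8.10, 8.23 and 8.22, a fall of -0.84 ± 0.0458. In A2058 they went from 8.10, 7.99 and 8.03 to 7.70, 7.67 and 7.65, a fall of -0.37 ± 0.0458. The treated A375 arrays therefore came down to about the level of untreated A2058 cells, 8.18 against 8.04 in the means. The difference of the responses was -0.48 ± 0.0648 (limma, adjusted p = 9.22e-05).

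TRIM51 fell more in A2058. Its values there were 6.72, 6.78 and 6.85 with DMSO and 5.35, 5.22 and 5.38 with vemurafenib, a change of -1.46 ± 0.108, the 91st largest fall of all genes. In A375 it went from 5.60, 5.61 and 5.41 to 4.53, 4.76 and 5.07, a change of -0.75 ± 0.108. That change ended at a mean of 4.79, a dim level where an array can understate a change. The second TRIM51 probe set fell by 0.20 in A375 and by 0.47 in A2058. TRIM51 belongs to a set of near-identical genes, so its signal may be shared with copies.

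TRIM9, a brain-enriched ligase that binds microtubules and takes part in netrin signalling, moved in opposite directions. In A375 it rose from 5.36, 5.54 and 5.43 to 6.44, 6.30 and 6.30, and in A2058 it fell from 5.73, 5.70 and 5.62 to 5.35, 5.42 and 5.34. No groups overlapped within a line. The changes were 0.90 ± 0.0571 and -0.31 ± 0.0571, and the difference between them was 1.21 ± 0.0808 (limma, adjusted p = 1.67e-07). No other TRIM gene outside the interferon list had a larger difference of responses.

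TRIM68, a coactivator of the androgen receptor, rose in both lines, by 0.69 ± 0.0821 in A375 and by 0.36 ± 0.0821 in A2058. Its A375 values went from 6.40, 6.53 and 6.29 to 7.03, 7.18 and 7.08. TRIM16, which lacks a RING domain and acts in the clearance of damaged lysosomes, went from 8.59, 8.41 and 8.50 to 9.06, 8.93 and 8.97 in A375. The rise was 0.49 ± 0.0603, while in A2058 the difference was -0.10 and was not called. A probe set shared by TRIM16 and the near-identical TRIM16L moved alike in A375, by 0.57, so the 2 genes cannot be told apart there.

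**Figure D3:**
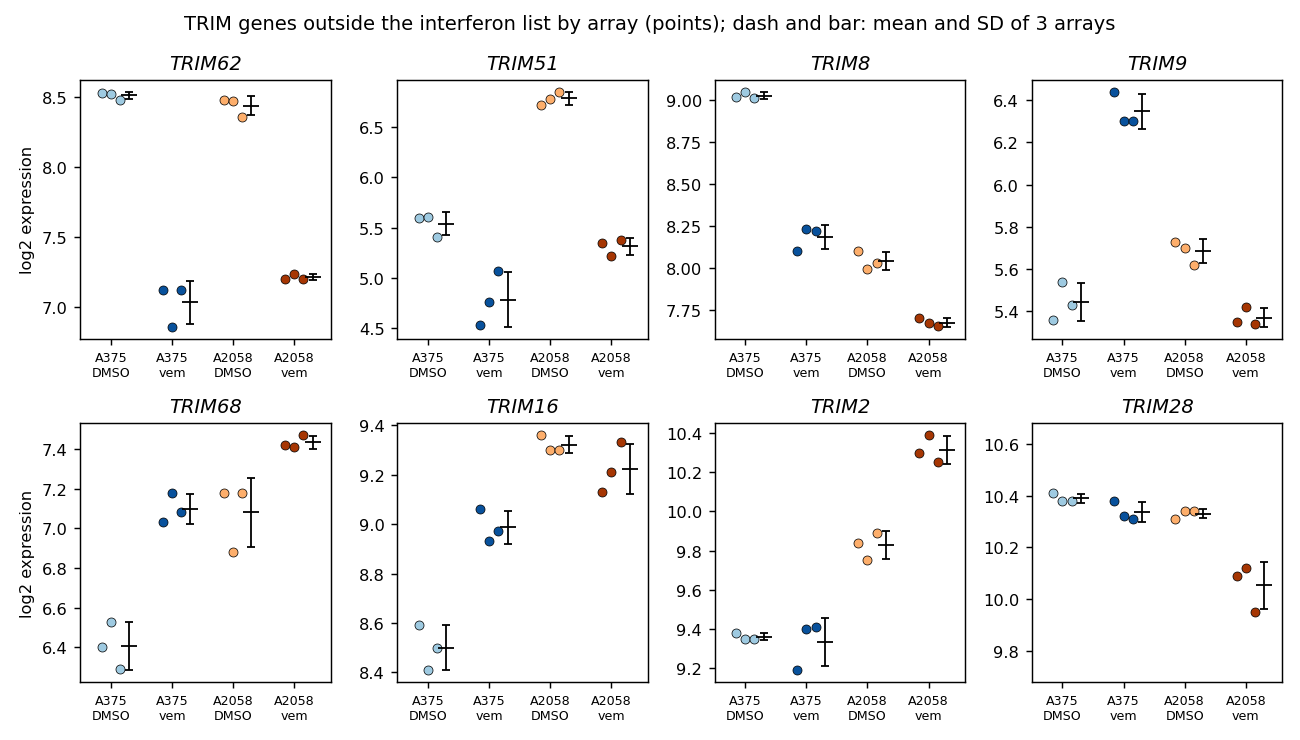
Log2 expression of 8 TRIM genes outside the interferon list on each of the 12 arrays (points), with the mean and SD of each group of 3. Axes differ between panels and do not start at 0. TRIM62 falls in both lines, TRIM9 goes up in A375 and down in A2058, and TRIM2 rises and TRIM28 falls in A2058 alone among the called changes.

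The chromatin-bound TRIM proteins, 4 genes, had 2 called down and 0 up in each line, where 19.3% of all genes were called down in A375 and 12.5% in A2058. TRIM33 fell in both, by -0.27 ± 0.0558 in A375 and -0.20 ± 0.0558 in A2058; the second call was lost on leaving out A2058 DMSO replicate 1 or 3 or A2058 vemurafenib replicate 3. TRIM24, a histone reader that also targets p53, fell in A375 by 0.24 ± 0.0612 and was not called in A2058. TRIM28 fell in A2058, from 10.31, 10.34 and 10.34 to 10.09, 10.12 and 9.95, a change of -0.28 ± 0.0459 (limma, adjusted p = 0.000503). Its A375 values lay between 10.31 and 10.41 with and without drug. The difference of the responses, 0.22, had an adjusted p of 0.0196 (limma) and was no longer called after quantile normalization. Of 10 TRIM28 cofactors, 5 were called down and 0 up in A375, with CBX5, the HP1 alpha gene, at -0.84 ± 0.0563; in A2058, 4 were called up and 1 down. All genes had 19.3% called down and 17.7% up in A375, and 12.5% and 14.6% in A2058.

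Of the 4 TRIM genes with NHL repeats, 3 were called up in A2058, where 14.6% of all genes were, and 0 in A375, but the responses differed between the lines by test for TRIM2 alone. TRIM2, a ligase for neurofilament light chain, went from 9.84, 9.75 and 9.89 to 10.30, 10.39 and 10.25 in A2058, a rise of 0.49 ± 0.0615. In A375 the corresponding values were 9.38, 9.35 and 9.35 and 9.19, 9.40 and 9.41, which overlap. The responses differed by -0.51 ± 0.0869 (limma, adjusted p = 0.000586). TRIM32, mutated in a limb-girdle muscular dystrophy, rose by 0.31 in A2058, a call lost without A2058 DMSO replicate 1, and TRIM3 rose by 0.22 there. In A375 their differences were 0.19 and 0.14, not called, and the differences of response were -0.12 for TRIM32 (limma, adjusted p = 0.538) and -0.084 for TRIM3 (limma, adjusted p = 0.492).

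TRIM52 rose by 0.28 in A375 and by 0.43 in A2058, and TRIM37, the ligase mutated in mulibrey nanism, by 0.16 and 0.31. The A375 call of TRIM37 held in 7 of the 12 fits that left out an array; leaving out replicate 1 or 2 of the A375 controls, replicate 2 or 3 of the treated A375 cells, or replicate 2 of the treated A2058 cells ended it, as did centring each array on its median or fitting only the groups compared. TRIM4, another RIG-I ligase, rose by 0.35 ± 0.0543 in A2058 and was not called in A375, with a difference of responses of -0.29 (limma, adjusted p = 0.011). TRIM47 and TRIM44 rose in A375 by 0.31 and 0.24, and TRIM46 fell there by 0.18. TRIM27 fell by 0.20 in A375 and by 0.15 in A2058, the latter call holding in 7 of the 12 fits that left out an array. It ended without replicate 2 of the A375 controls, replicate 2 or 3 of the A2058 controls, or replicate 2 or 3 of the treated A2058 cells, and with the replicate block or quantile normalization. TRIM41 was called up by 0.16 in A2058 although its DMSO and vemurafenib arrays overlapped. The remaining 27 members, TRIM69 included, were called for vemurafenib in neither line. Their differences ran from -0.22 for TRIM11 to 0.19 for TRIM35 in A375, and from -0.13 to 0.15 in A2058.

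Counted together, 15 TRIM genes were called up and 7 down in A375, and 13 up and 8 down in A2058. These are 27.3% and 12.7% of the members in A375, against 17.7% and 19.3% of all genes. For A2058 they are 23.6% and 14.5%, against 14.6% and 12.5%. The lists met in 8 genes called up in both lines, 14.5% against 6.52% of all genes. Of these 8, 5 are on the interferon list: TRIM5, TRIM21, TRIM25, TRIM26 and TRIM38. The 3 outside it, TRIM37, TRIM52 and TRIM68, are 6.52% of the 46 genes there. The A2058 calls of TRIM5, TRIM25 and TRIM26 and the A375 call of TRIM37 were lost in some fits. Another 5 members were called down in both lines, 9.09% against 6.85%. The 2 genes TRIM56 and TRIM9 rose in A375 and fell in A2058, 3.64% against 1.8%. No member did the reverse, as did 2.61% of all genes. Of these joint counts over all members, all but the first lie near the share for all genes. Outside the interferon list the first does so too. Members called in neither line made up 49.1%, against 53.6% of all genes. The A375 count was 26 without A375 vemurafenib replicate 1, with 16 up and 10 down. The share of all genes called in that fit is not given here.

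**Figure D4:**
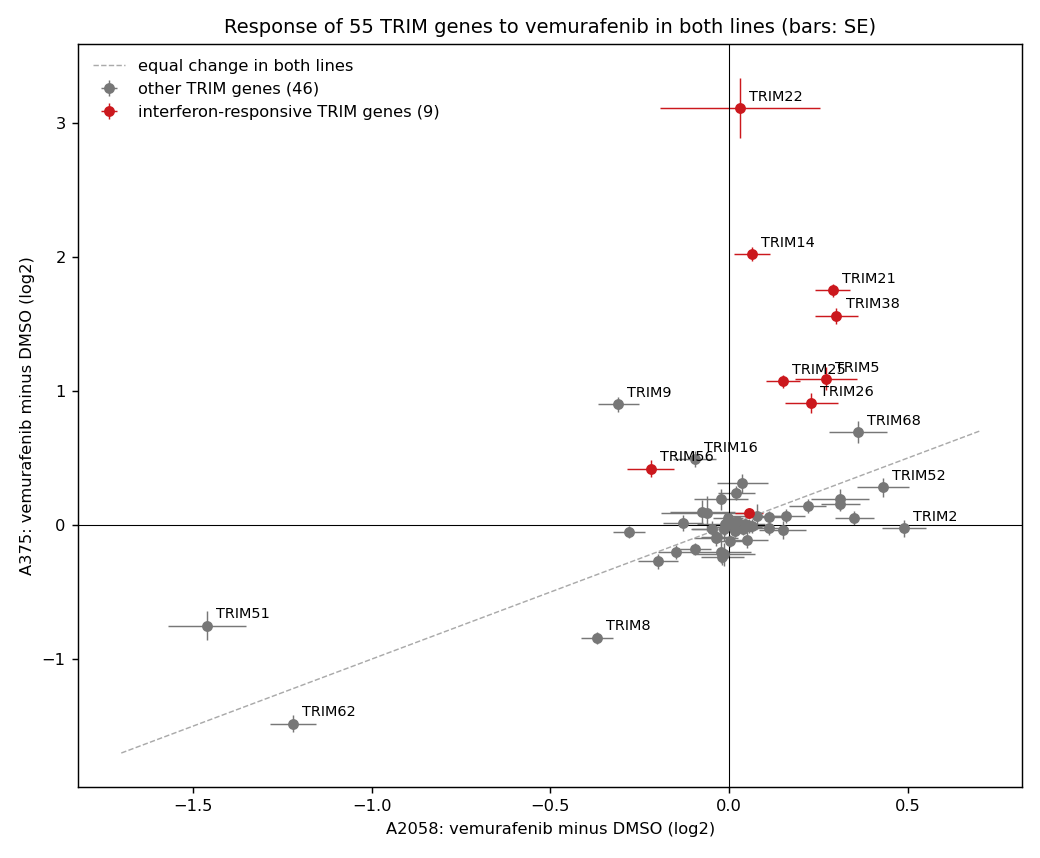
Difference between vemurafenib and DMSO (log2) of the 55 TRIM genes in A2058 (horizontal) and A375 (vertical), with the SE of each. The dashed line marks equal change, and names are given where either difference is 0.4 or more in size. The 9 interferon-responsive genes (red) lie above the line, from TRIM69 near 0 to TRIM22 at 3.11 in A375, and TRIM62, at -1.48 in A375 and -1.22 in A2058, lies at the lower left.

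Before drug, 11 TRIM genes were called higher in A375 and 12 higher in A2058, close to the 23.9% and 22.5% of all genes in these directions. A375 and A2058 samples carry separate runs of sample numbers. Any difference in handling between them cannot be told apart from the line, here or under vemurafenib. The largest excess in A375 was that of TRIM8, 0.99 ± 0.0458, followed by TRIM25 with 0.75 and TRIM14 with 0.56. TRIM52, TRIM41 and TRIM47 each differed by 0.52. A2058 had more TRIM26 (-1.27 ± 0.0746, A375 minus A2058) and TRIM51 (-1.24 ± 0.108), then TRIM38 (-0.89), TRIM16 (-0.82), TRIM68 (-0.67) and TRIM27 (-0.65). By the second TRIM26 probe set the difference was -0.40. The interferon list was thus divided between the untreated lines, with 3 higher in A375 and 4 higher in A2058 and a median of -0.032. TRIM21, among the 3, differed by only 0.14, a call lost without replicate 1 or 2 of either DMSO group, with the replicate block, with centring on the median, and with a trended, robust prior.

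Under vemurafenib 17 TRIM genes were called higher in A375 and 13 higher in A2058, and 22.7% and 24.2% of all genes were called in these directions. This comparison shares its arrays with the drug comparisons and is not independent of them. TRIM22 led with 3.11 ± 0.224, followed by TRIM14 with 2.51, TRIM25 with 1.68, TRIM21 with 1.60, TRIM9 with 0.98 and TRIM47 with 0.79. On the other side were TRIM2 with -0.98, TRIM27 with -0.70, TRIM37 with -0.61, TRIM26 with -0.59, TRIM51 with -0.53 and TRIM4 with -0.40. Of the interferon list 7 were then higher in A375 and 1, TRIM26, higher in A2058. The second TRIM26 probe set turned this call round, with 0.27 ± 0.0825 (limma over all probe sets, adjusted p = 0.0256), so the direction for TRIM26 under drug depends on the probe set.

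The order of the lines was turned round in 4 genes that were called both with and without drug. TRIM38 was lower in A375 by 0.89 with DMSO and higher by 0.37 with vemurafenib, TRIM5 went from -0.30 to 0.52, TRIM56 from -0.21 to 0.43, and TRIM9 from -0.24 to 0.98. For TRIM5 and TRIM56 the DMSO call was lost on leaving out any of 3 arrays: A375 DMSO replicate 1 and A2058 DMSO replicates 1 and 3 for TRIM5, and A375 DMSO replicates 1 and 3 and A2058 DMSO replicate 1 for TRIM56. In 18 others the line with the higher value was the same with and without drug, although for TRIM26, among them, the second probe set went from -0.40 to 0.27. The ordering of the group means of TRIM26 was A375 DMSO (6.01), A375 vemurafenib (6.92), A2058 DMSO (7.28) and A2058 vemurafenib (7.51). By the second probe set its A375 vemurafenib values, 5.83, 5.81 and 5.57, instead overlapped those of A2058 DMSO, 5.60, 5.67 and 5.59.

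**Figure D5:**
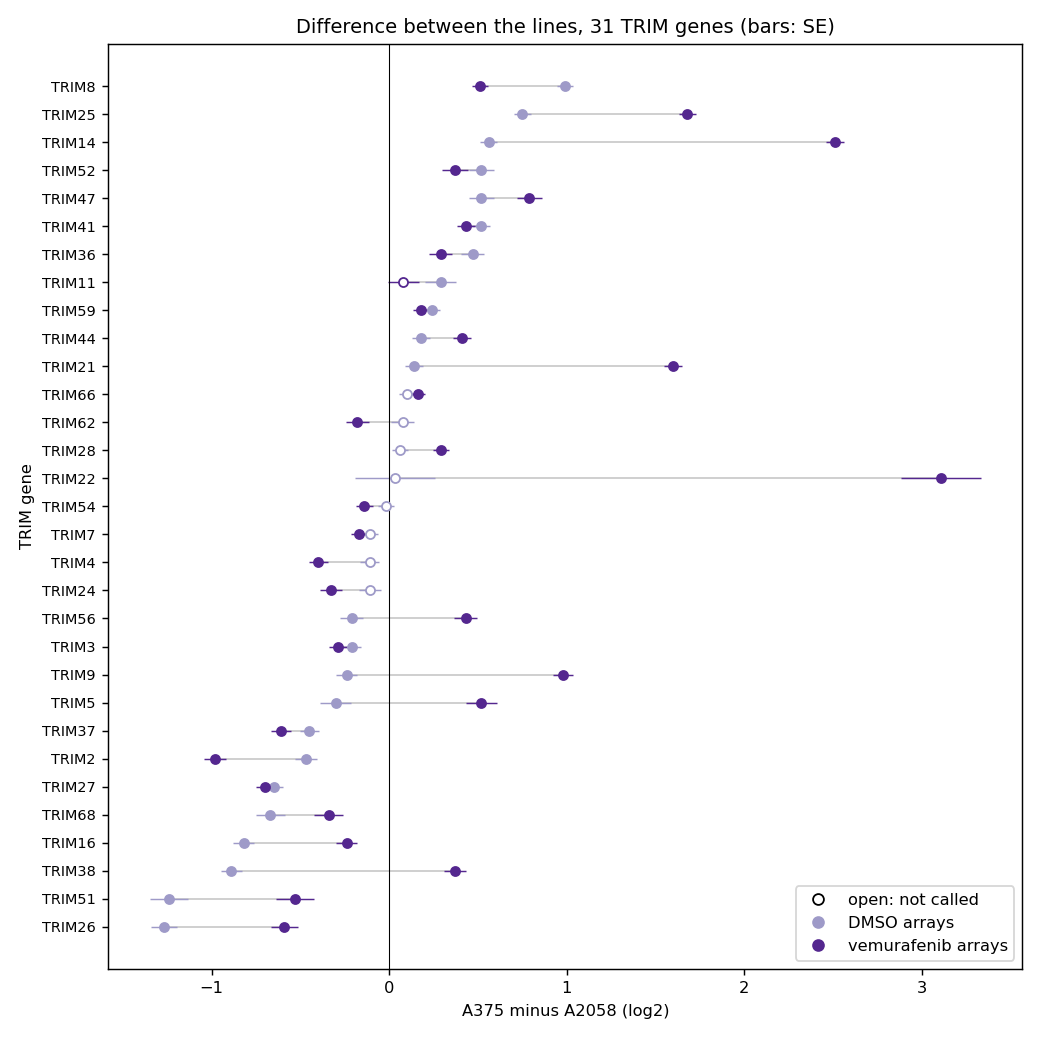
Difference between the lines (A375 minus A2058, log2, with SE) for the 31 TRIM genes called with DMSO (light), with vemurafenib (dark) or with both; open symbols were not called. The genes are ordered by the DMSO difference, from TRIM26 at -1.27 to TRIM8 at 0.99, and the points of TRIM38, TRIM5, TRIM56 and TRIM9 lie on opposite sides of 0.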

How the data were processed

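RNA of 12 samples was hybridised to Human Gene ST arrays of Affymetrix, 1 array each. The authors deposited log2 values, 1 per probe set and array; per the submitters' processing notes R 3.0.1 and affy were used, and the background correction is not given in the sources used here. Precision is limited by the number of arrays, 3 per group, and dim signals near the bottom of the scale understate a change. Probe sets with exactly 1 symbol in the platform annotation (19158 of 32321) were named, symbols were updated through RefSeq, and for the 637 genes with several the brightest was kept. Groups came from the sample titles. All arrays entered 1 limma 3.58.1 model of 4 group means under R 4.3.3 (8 residual and 3.98 prior degrees of freedom) with 5 contrasts: vemurafenib minus DMSO in each line, the difference of these, and A375 minus A2058 with each treatment. Tests were two-sided, adjusted by the Benjamini-Hochberg method over 18404 genes, and called at an adjusted p under 0.05. Each SE is moderated by eBayes. Second and shared probe sets come from the same model over all 32321 probe sets.

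The fit was tested on simulated data. Members and lists were chosen with earlier results of these data known. Genes were named by rule: the interferon list whatever its result, the largest called drug differences of 0.5 or more and the 6 largest between lines per sign, the 6 largest called differences of response, the brightest 5 and dimmest 3, TRIM24, TRIM28 and TRIM33, TRIM proteins under other symbols, and up to 3 called genes per partner list; other names complete a count or were chosen after their values were seen. Alternatives left out each array, blocked by replicate number, averaged probe sets, left out dim genes (every group mean under 5), rescaled by quantiles or medians, changed the variance model, weighted arrays, or fitted compared groups alone.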

Additional observations from a re-analysis of the deposited data

Results flagged for a closer look

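The response to vemurafenib differed between the lines, by the interaction contrast of limma, for 17 TRIM genes. It was more positive in A375 for 25.5% of the members and more negative for 5.45%. Of all genes 13.1% and 16.4% were called in these directions. On the log2 scale, A375 response minus A2058 response, the values of the interferon-responsive genes were 3.08 for TRIM22, 1.96 for TRIM14, 1.46 for TRIM21, 1.26 for TRIM38, 0.93 for TRIM25, 0.82 for TRIM5, 0.68 for TRIM26 and 0.64 for TRIM56. Among the others the response was more positive in A375 for TRIM9 at 1.21, TRIM51 at 0.71, TRIM16 at 0.58, TRIM68 at 0.34, TRIM28 at 0.22 and TRIM44 at 0.22, and for TRIM51 this means a smaller fall. It was more negative in A375 for TRIM2 at -0.51, TRIM8 at -0.48 and TRIM4 at -0.29. TRIM68 was still called in 3 of the 12 fits that left out an array and TRIM44 in 5.

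Probe sets shared by several symbols, which belong to no single member, also rose in A375 (limma over all probe sets). Both probe sets of OR2W3 and TRIM58 rose, by 0.74 (adjusted p = 4.7e-05) and 0.62 (adjusted p = 0.00045), and neither was called in A2058. The probe set of TRIM6, TRIM34 and their read-through TRIM6-TRIM34 rose by 0.54 ± 0.035 (adjusted p = 3.94e-07), from 4.63, 4.66 and 4.55 to 5.14, 5.16 and 5.15, against 0.10 in A2058 (not called). TRIM34 is on the interferon list, and these genes are neighbours of TRIM5 and TRIM22 on chromosome 11. The probe set of TRIM16L and TRIM16 rose by 0.57 in A375 and fell by 0.15 in A2058 (adjusted p = 0.00792).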

How the results depend on the processing

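With a 2-fold threshold added, the counts of TRIM genes fell to 7 in A375, 2 in A2058 and 5 for the difference of responses. Between the lines they fell to 2 with DMSO and 4 with vemurafenib. Over all genes, 1.93% were called up and 2.27% down by at least 2-fold in A375, and 0.837% and 1.15% in A2058. Of 18404 genes, 380 were up and 392 down for the difference of responses. Between the lines 615 and 558 were with DMSO, and 635 and 695 with vemurafenib. Leaving out each array in turn gave 21 to 26 TRIM genes in A375, 15 to 21 in A2058 and 15 to 19 for the difference. Between the lines it gave 20 to 26 with DMSO and 29 to 33 with vemurafenib. Interferon-responsive genes called up in A375 numbered 8 to 8. Counts over all genes in these fits are not given here. For the TRIM genes named by rule, none of the alternative fits reversed a called vemurafenib change within a line. Between the treated lines the second TRIM26 probe set did reverse a call. With the replicate number as a block the TRIM counts were 22, 18, 17, 22 and 29 in that order, and 8 for the interferon list. The block counts over 18404 genes were 6605, 4763, 5160, 8322 and 8417. Same-numbered arrays did not deviate together (correlations from -0.294 to 0.0996), so the numbers were not taken as pairs. Scaling the arrays by quantiles gave 25 TRIM genes in A375 and 18 in A2058, and centring on medians gave 23 and 17. Counts over all genes with these scalings are not given here.

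Calls lost in some fits were small. In A2058, of 12 fits with 1 array left out, TRIM25 was called in 5 and TRIM26 in 6, with TRIM25 lost without A375 DMSO replicate 1 or 2, A2058 DMSO replicate 1 or 2, or each of the A2058 vemurafenib arrays, and TRIM26 without A375 DMSO replicate 1, A2058 DMSO replicate 1 or 2, or each of the A2058 vemurafenib arrays. TRIM5 was lost when A2058 DMSO replicate 2 or 1 of the A2058 vemurafenib arrays was missing, and TRIM56 without A2058 DMSO replicate 1 or 2 or A2058 vemurafenib replicate 2 or 3. TRIM41 (8 of 12) and TRIM27 (7 of 12) in A2058 and TRIM37 (7 of 12) in A375 were also lost in part. Averaging its probe sets reduced TRIM26 in A2058 to 0.039. For these lost calls the cause was not tested.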

Other observations

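Of 9 measured ubiquitin-activating and ubiquitin-conjugating enzymes that serve TRIM ligases, 5 were called up and 2 down in A375, and 1 up and 1 down in A2058. Of all genes 17.7% were called up and 19.3% down in A375, and 14.6% and 12.5% in A2058, so the A2058 count is near the share for all genes. UBE2L6, the conjugating enzyme of ISG15, rose from 7.84, 7.93 and 7.78 to 8.65, 9.12 and 9.12 in A375, by 1.11 ± 0.116 (limma, adjusted p = 5.67e-06), and was not called in A2058. ISG15 itself rose by 1.69 ± 0.0771 in A375 alone among the called changes. UBA6, an activating enzyme, fell by 0.62 in A375. MID1, a TRIM protein under another symbol that binds microtubules, rose by 0.54 in A375 and 0.58 in A2058, while its paralogue MID2 fell by 0.53 in A375 and was not called in A2058.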
